A study of Sus scrofa with 20 samples.

Results

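PLCZ1 (ENSSSCG00000000590) and CAPZA3 (ENSSSCG00000000589) are neighbouring genes of late spermatids, the male germ cells that have finished meiosis and are being shaped into sperm. They were taken by gene identifier, as 2 of the 21306 genes that were listed in the count tables of both breeds. The pair was chosen on the measured difference between high and low DFI boars of the Duroc breed, where the study listed both genes. Values of that contrast are therefore a description without a test. Transcript counts of testis tissue were measured in 20 Norsvin boars, 1 library per boar. Norsvin Landrace gave 5 boars of low and 4 of high sperm DNA fragmentation index (DFI), and Norsvin Duroc gave 5 of low and 6 of high DFI. DFI is the share of sperm DNA that turns single-stranded under acid, read by flow cytometry of semen. All were boars of an artificial insemination centre, sampled from the middle of 1 testicle at slaughter. The paper gives a range and mean of age at semen collection, but no age for each boar. Ages at slaughter were not given in the sources used here. Boars are named by group and number, and the numbers are only names.

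PLCZ1 encodes a phospholipase C of sperm. It enters the egg at fertilization, cleaves a membrane lipid to inositol trisphosphate and so sets off the calcium oscillations that activate the egg. CAPZA3 encodes the testis-specific alpha subunit of the capping protein, which binds the fast growing ends of actin filaments, and it remains in mature sperm. Vimentin (VIM, ENSSSCG00000011033) is an intermediate filament protein of Sertoli, Leydig and other somatic cells of the testis. Its transcript was followed as a sign of the mix of germ and somatic cells. In such bulk tissue, fewer cells of a type and less RNA per cell cannot be told apart.

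Total counts ranged from 18086448 to 51782156 per library. The library of Landrace high 1 was the smallest, and the other 19 held at least 34527935 counts. PLCZ1 had 7243 to 22343 counts and CAPZA3 8939 to 23056 counts per boar, so the counting error was small against the spread between boars. The biological coefficient of variation, the spread between boars beyond counting error, was 0.140 for PLCZ1, 0.127 for CAPZA3 and 0.282 for VIM. Genes of similar level had a median of 0.096. Levels are given below as CPM, that is, counts scaled to a common library size, on 1 scale for all 20 boars. Gene lengths were not at hand, so the levels of different genes are not compared.

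In RefSeq (assembly Sscrofa11.1, a later build than Sscrofa10.2, on which the reads were counted), the span of CAPZA3 lies inside that of PLCZ1. The libraries and the counting ignored the strand. Reads from a stretch shared by both genes could therefore not be told apart, and the overlap on Sscrofa10.2 was not analysed here.

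In Duroc, the contrast on which the pair was chosen, both genes were lower in every high DFI boar than in every low DFI boar. PLCZ1 levels of the 5 low DFI boars were 409, 484, 482, 367 and 366 CPM. In the 6 high DFI boars the lowest level was 246, the median 331 and the highest 363 CPM. The groups thus nearly touched, since the highest high DFI boar lay just under the lowest low DFI boar. CAPZA3 levels were 416, 496, 446, 436 and 376 CPM with low DFI. With high DFI the lowest was 268, the median 355 and the highest 373 CPM. Here, too, the gap between the groups was narrow. Of 14636 genes, 186 (1.27%) separated the Duroc groups in this direction. The logFC, the log2 fold change of high against low DFI, was -0.43 (SE 0.12) for PLCZ1 and -0.37 (SE 0.095) for CAPZA3. These are folds of 0.744 and 0.775. Of all 14666 genes tested in Duroc, 2 (0.0136%) passed the adjusted threshold of edgeR's quasi-likelihood test. They were ENSSSCG00000021847 and ENSSSCG00000028503, named after their values were seen. The likelihood ratio test that the study used called 376 genes (2.56%) and DESeq2 859 (5.86%). PLCZ1 and CAPZA3 were among both, but this contrast chose them, so these calls are no test of the pair.

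**Figure D1:**
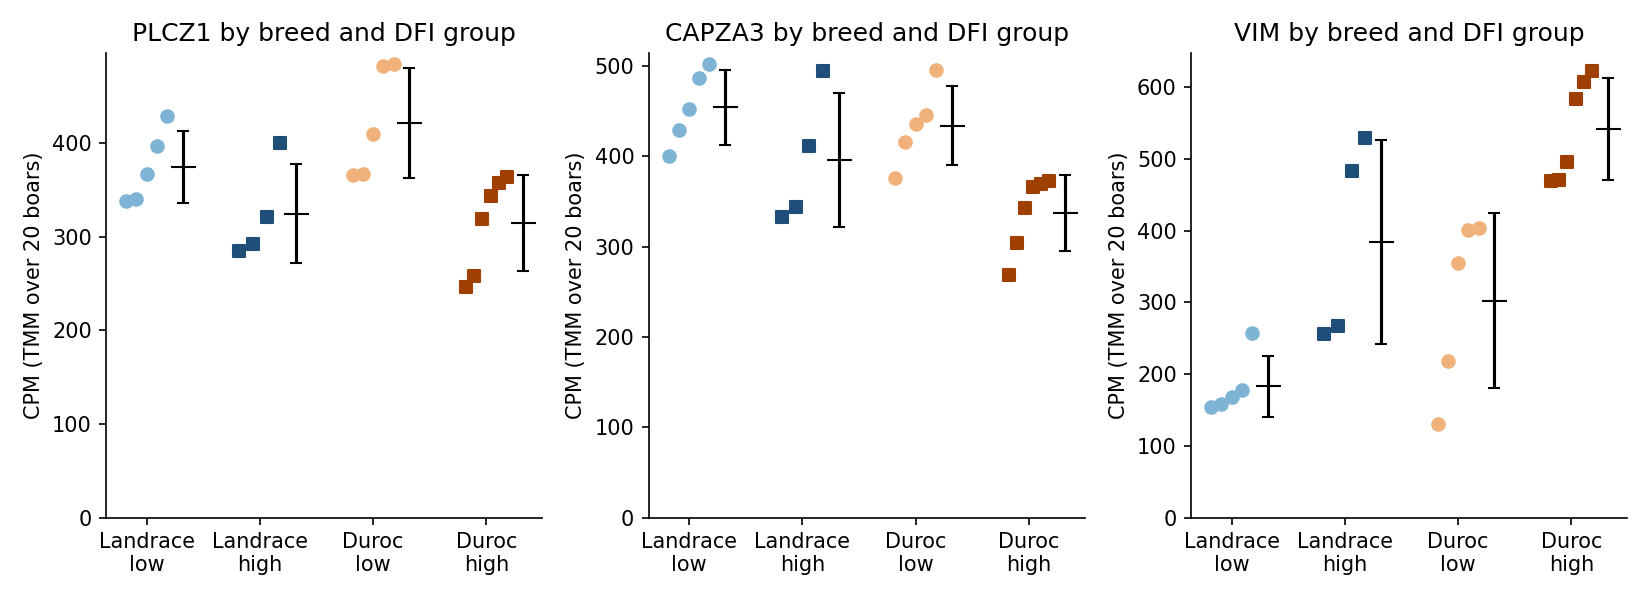
CPM of PLCZ1, CAPZA3 and VIM in each boar (points), with the group mean and SD beside them (bar, n = 5, 4, 5 and 6). In Duroc all 6 high DFI boars lie below the low DFI boars for PLCZ1 and CAPZA3 and above them for VIM, while the Landrace groups overlap for all 3 genes. Of 14636 genes, 482 separated the Duroc groups in either direction.

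The pair was chosen on the Duroc contrast, and the study did not list either gene for Landrace. Earlier results of these data were also known, so the 9 Landrace boars are not a fully independent check. Their PLCZ1 levels were 397, 340, 429, 339 and 367 CPM with low DFI, and 400, 292, 285 and 321 CPM with high DFI. Of the 4 high DFI boars, 3 lay below every low DFI boar, and Landrace high 1 lay above all low DFI boars but Landrace low 3. The means were 374 ± 38.9 (SD, n = 5) and 325 ± 52.8 CPM (SD, n = 4). The logFC was -0.20 (SE 0.12), a difference that did not pass the test (edgeR quasi-likelihood test, adjusted p = 0.433).

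CAPZA3 levels in Landrace were 430, 487, 503, 401 and 452 CPM with low DFI, and 494, 344, 332 and 412 CPM with high DFI. Only Landrace high 2 and high 3 lay below every low DFI boar, and Landrace high 1 again stood near the top. The means were 455 ± 41.6 (SD, n = 5) and 396 ± 74.3 CPM (SD, n = 4). The logFC was -0.19 (SE 0.12), which did not pass either (edgeR quasi-likelihood test, adjusted p = 0.480).

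No gene (0%) of the 14519 tested in Landrace passed the adjusted threshold of this test, and 2417 had an unadjusted p under 0.05. The likelihood ratio test called 767 genes (5.28%) and DESeq2 828 (5.7%). Neither called PLCZ1 or CAPZA3, with adjusted p of 0.543 and 0.605 in the likelihood ratio test. Without Landrace high 1, the shallow library, the logFC was -0.32 (SE 0.096) for PLCZ1 and -0.32 (SE 0.10) for CAPZA3 (edgeR quasi-likelihood test, adjusted p = 0.106 and 0.129). Without Landrace high 3, that of CAPZA3 was -0.12 (SE 0.12). In both genes the direction was the same with any 1 boar left out. Among the 6 Landrace boars whose sample numbers run consecutively, of which 2 had low DFI, the logFC was -0.17 (SE 0.16) and -0.20 (SE 0.17). In a fit of all 20 boars, the Duroc logFC minus the Landrace logFC was -0.22 (SE 0.18) for PLCZ1 and -0.16 (SE 0.16) for CAPZA3. No test is given, because this difference holds the Duroc contrast.

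Between the breeds, neither gene differed past the threshold. The average over the DFI groups of the Duroc minus Landrace difference was 0.06 (SE 0.088) on the log2 scale for PLCZ1 and -0.15 (SE 0.079) for CAPZA3 (edgeR quasi-likelihood test over 20 boars, adjusted p = 0.664 and 0.204). Of 14636 genes, 2696 (18.4%) passed this test. The estimates had opposite signs. With low DFI the difference was 0.17 (SE 0.12) for PLCZ1 and -0.07 (SE 0.11) for CAPZA3. With high DFI it was -0.04 (SE 0.13) and -0.23 (SE 0.11). Without Landrace high 1 the averages were 0.13 and -0.08. The order of the group means was Duroc low, Landrace low, Landrace high, Duroc high for PLCZ1, with 422, 374, 325 and 315 CPM. For CAPZA3 it was Landrace low, Duroc low, Landrace high, Duroc high, with 455, 434, 396 and 337 CPM. Neighbours in these orders overlapped in their ranges.

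The ratio of PLCZ1 to CAPZA3 counts needs no scaling between libraries, since both counts come from 1 library. It is not a ratio of molecules, as the genes differ in length. The ratio was 0.924, 0.697, 0.853, 0.844 and 0.812 in Landrace boars with low DFI, and 0.810, 0.848, 0.857 and 0.779 with high DFI. In Duroc it was 0.983, 0.977, 1.08, 0.841 and 0.973 with low DFI. With high DFI the lowest ratio was 0.849, the median 0.934 and the highest 0.984. Of the 11 Duroc boars, 8 had a higher ratio than every Landrace boar, and 4 of the 9 Landrace boars had a lower ratio than every Duroc boar.

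The ratio was higher in Duroc than in Landrace, with means of 0.948 ± 0.067 (SD, n = 11) and 0.825 ± 0.063 (SD, n = 9). The log2 difference, averaged over the DFI groups, was 0.20 (SE 0.049). In an exact two-sided permutation test over the 52920 assignments of breed within DFI groups, p was 0.00062. With any 1 boar left out the difference was 0.17 to 0.23 (permutation p = 0.00019 to 0.0015). Without the 3 Landrace boars outside the consecutive numbers it was 0.22 (permutation p = 0.0075). Breed and anything handled differently between the breeds' samples cannot be told apart, and the effect of breed sequence differences on mapping was not tested.

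Between DFI groups the ratio did not differ past the threshold in Landrace. The log2 difference of high minus low was 0.00071 (SE 0.074, exact two-sided permutation p = 0.992, where 0.0079 is the smallest p the design allows). In Duroc it was -0.06 (SE 0.065), given as a description, and it was -0.021 without Duroc low 3 and -0.11 without Duroc low 4. In the plot of PLCZ1 against CAPZA3, most Duroc boars lie above Landrace boars of like CAPZA3 level.

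**Figure D2:**
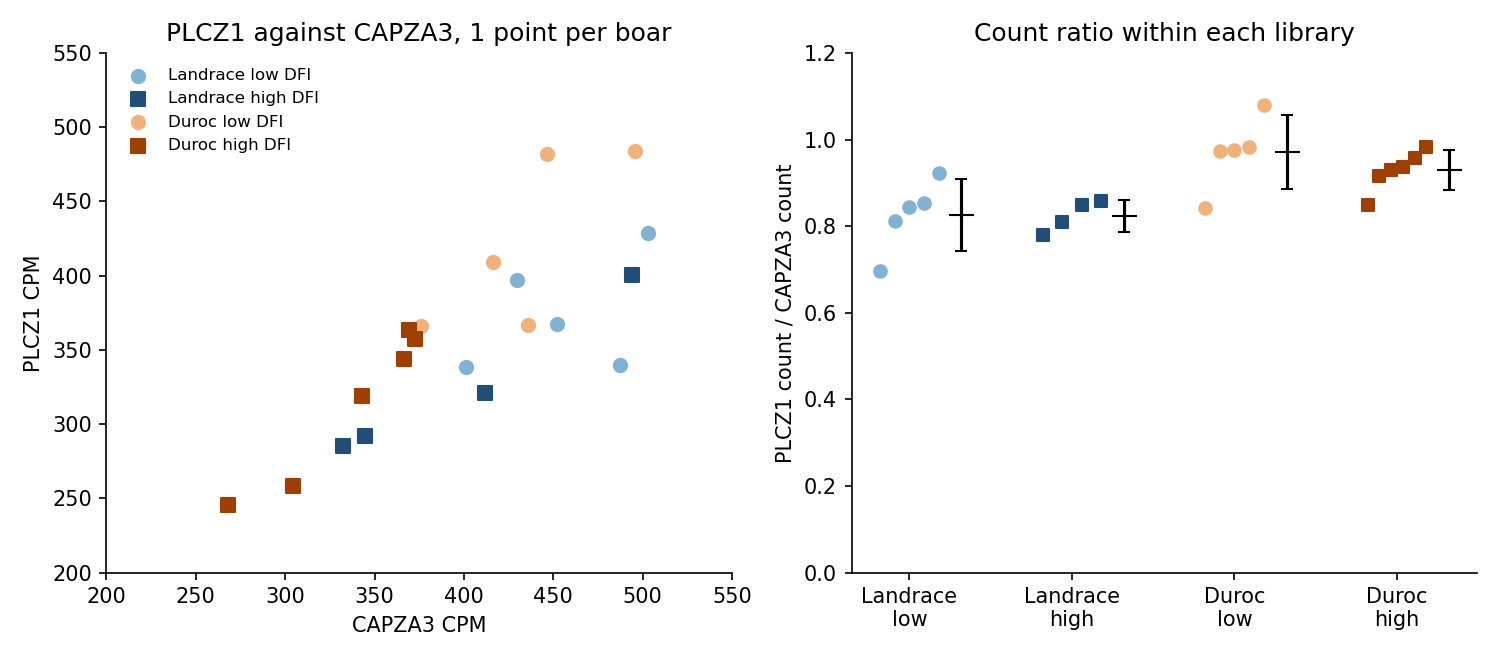
Left, PLCZ1 against CAPZA3 in CPM, 1 point per boar, with both axes starting at 200 CPM. Right, the ratio of their counts in each library, with group mean and SD; 8 of 11 Duroc boars lie above all 9 Landrace boars, and the DFI groups within a breed overlap.

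Within the groups, PLCZ1 and CAPZA3 went up and down together from boar to boar. After the mean of each DFI group was removed, Pearson's r of their log2(CPM + 0.5) values in Duroc was 0.90 (n = 11, exact permutation p = 0.00059, adjusted 0.0035 over the 6 relations computed). Spearman's rho was 0.92 (permutation p = 0.00024, adjusted 0.0015). Without the 2 boars farthest from the median of PLCZ1, Duroc high 3 and high 4, r was 0.78 (permutation p = 0.040). In Landrace r was 0.80 (n = 9, exact permutation p = 0.023, adjusted 0.046) and rho 0.83 (permutation p = 0.022, adjusted 0.044). Without Landrace high 1 and low 3, r was 0.36 (permutation p = 0.424), so the Landrace relation rests on those 2 boars. Leaving out Landrace high 1 alone gave r = 0.56 (permutation p = 0.167). Leaving out Landrace high 2, 3 or 4 or low 3 or 4 also took p past 0.05, with r of 0.76 to 0.82. All levels are shares of a library, so genes of the same cells also vary together with the cell mix, and the part of the cell mix was not tested.

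VIM, the somatic gene, was listed by the study for both breeds, so its DFI difference is a description. In Duroc it was 218, 401, 131, 404 and 355 CPM with low DFI, and the lowest, median and highest levels with high DFI were 469, 540 and 623 CPM. In Landrace it was 168, 159, 154, 258 and 178 CPM with low DFI and 256, 529, 482 and 268 CPM with high DFI. VIM was thus higher in high DFI boars, by a logFC of 0.84 (SE 0.25) in Duroc and 1.07 (SE 0.23) in Landrace. Landrace high 1 and high 4 were close to the highest low DFI boar, Landrace low 4. Averaged over the DFI groups, VIM was higher in Duroc than in Landrace by 0.61 (SE 0.19) on the log2 scale (edgeR quasi-likelihood test, adjusted p = 0.028). Over 27 alternatives the adjusted p was 0.0037 to 0.061, under 0.05 in 23 of them.

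In Landrace, r with VIM within the groups was negative for both genes, and only that of CAPZA3 passed the threshold after adjustment. For CAPZA3 r was -0.90 (n = 9, exact permutation p = 0.0045, adjusted 0.014) and rho -0.88 (permutation p = 0.017, adjusted 0.044). Without Landrace high 2 and low 4, the 2 boars farthest from the median of VIM, r was -0.88 (permutation p = 0.021). For PLCZ1 r was -0.74 (n = 9, exact permutation p = 0.044, adjusted 0.067) and rho -0.82 (permutation p = 0.034, adjusted 0.051), neither past the threshold after adjustment. Landrace high 1 shows the pattern: its VIM was the lowest and its PLCZ1 and CAPZA3 the highest among the high DFI boars.

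In Duroc neither relation passed the threshold. For PLCZ1 with VIM r was -0.27 (n = 11, exact permutation p = 0.435, adjusted 0.522) and rho -0.12 (permutation p = 0.711, adjusted 0.854). For CAPZA3 with VIM r was 0.05 (n = 11, exact permutation p = 0.868, adjusted 0.868) and rho 0.05 (permutation p = 0.917, adjusted 0.917). Without Duroc low 1 and low 3, r was 0.09 and 0.29 (permutation p = 0.778 and 0.471). Whether the relation differed between the breeds was not tested.

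**Figure D3:**
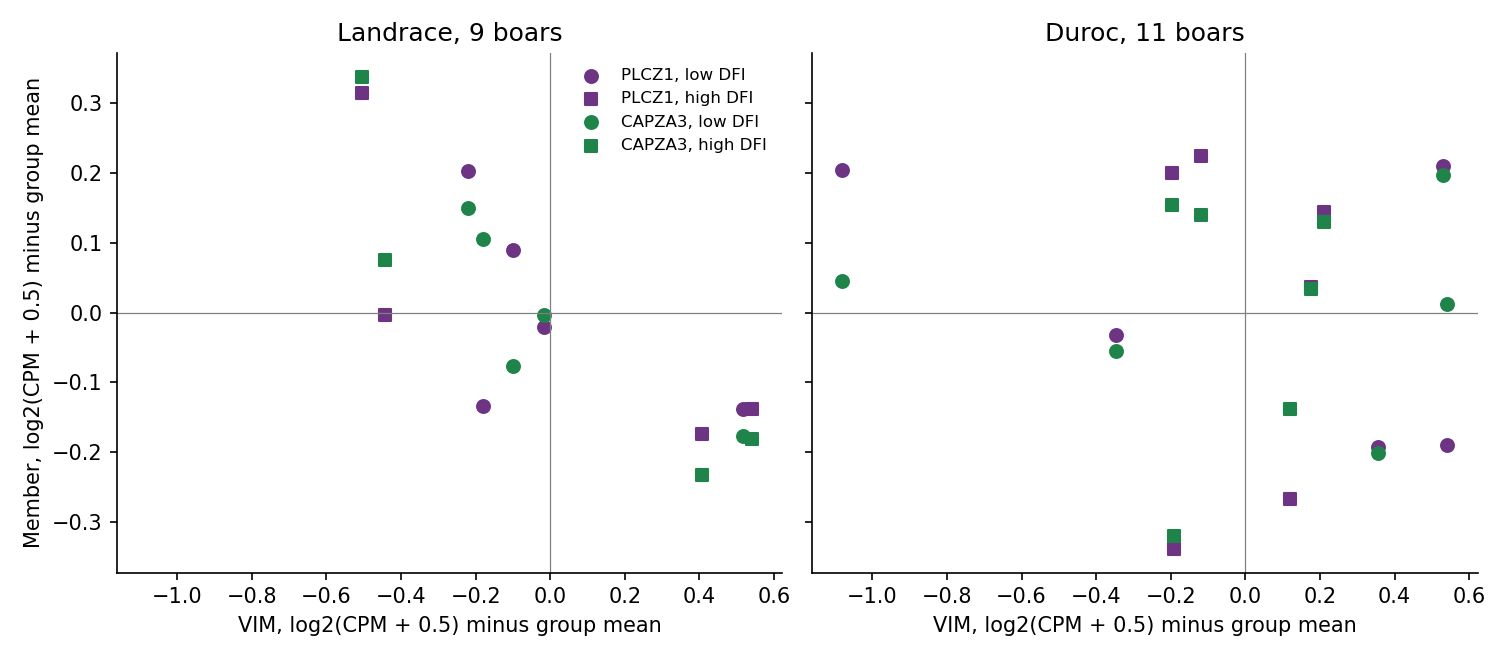
Within-group deviations of PLCZ1 and CAPZA3 (vertical, log2 units) against those of VIM (horizontal, log2 units), 1 point per boar and gene. In the 9 Landrace boars the points fall from left to right (r = -0.74 and -0.90), and in the 11 Duroc boars they show no trend (r = -0.27 and 0.05).

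Other late spermatid genes showed the same direction as the pair. Of 42 such genes listed, 34 had a matching symbol and all 34 were tested. In Duroc 33 of the 34 were lower with high DFI, 25 of them with an unadjusted p under 0.05, against 9.89% of all genes that were lower at that p. The median logFC was -0.25, against 0.0082 over all genes, and none of the 34 passed the adjusted threshold. The likelihood ratio test called 3 of the 34 in Duroc, against 2.56% of all genes, and none in Landrace, against 5.28%. In Landrace all 34 were lower, 8 with an unadjusted p under 0.05 (4.53% of all genes), with a median logFC of -0.16 against -0.01 over all genes, and none passed the adjusted threshold. The logFC of PLCZ1 and CAPZA3 in Landrace, -0.20 and -0.19, was close to that median. In Duroc it was -0.43 and -0.37, where the list ran from -0.44 to 0.01. The Duroc contrast chose the pair and not the list, so the pair's low place there is a description only.

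The late spermatid genes with the highest CPM, a rank that gene length also enters, were CRISP2, a cysteine-rich secretory protein of the acrosome and sperm tail, TNP1, a transition protein that replaces histones, PRM1, a protamine of condensed sperm DNA, and AKAP4, a scaffold of the sperm tail. Their logFC in Duroc was -0.28 for CRISP2, -0.25 for TNP1, -0.18 for PRM1 and -0.29 for AKAP4. In Landrace it was -0.26 for CRISP2, -0.12 for TNP1, -0.11 for PRM1 and -0.22 for AKAP4. Between the breeds SPATA19 and CATSPER3, a mitochondrial protein and a calcium channel subunit of sperm, were the 2 of the 34 that passed, a smaller share than the 18.4% of all genes, with Duroc minus Landrace values of -0.43 and -0.43 (edgeR quasi-likelihood test, adjusted p = 0.0017 and 0.014).

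Set against these 34 genes in the same library, PLCZ1 counts were 1.099, 1.02, 1.15, 1.13 and 1.15% of their summed counts in Landrace boars with low DFI, and 1.24, 1.15, 0.966 and 1.01% with high DFI. CAPZA3 counts were 1.19, 1.47, 1.34, 1.33 and 1.42% with low DFI and 1.53, 1.35, 1.13 and 1.30% with high DFI. The log2 difference of high minus low in Landrace was -0.03 (SE 0.089, exact permutation p = 0.714) for PLCZ1 and -0.03 (SE 0.11, exact permutation p = 0.770) for CAPZA3. Relative to other late spermatid genes, a Landrace difference was thus not detected in either gene. In Duroc PLCZ1 counts were 1.26, 1.39, 1.37, 0.975 and 1.21% with low DFI, and the lowest, median and highest with high DFI were 0.914, 1.11 and 1.19%. CAPZA3 counts there were 1.28, 1.43, 1.26, 1.16 and 1.25% with low DFI, and the lowest, median and highest with high DFI were 1.08, 1.17 and 1.27%. The Duroc groups, separate in CPM, overlapped on this measure, with log2 differences of -0.18 (SE 0.11) for PLCZ1 and -0.12 (SE 0.058) for CAPZA3. With 1 boar left out they were -0.26 to -0.13 and -0.15 to -0.075. A sum gives most weight to the genes with the most counts. Against the geometric mean of the 34 genes, the Duroc differences were -0.19 for PLCZ1 and -0.13 for CAPZA3. Against the summed counts of spermatocyte genes instead, they were larger, -0.29 for PLCZ1 and -0.23 for CAPZA3. The summed level of the 34 genes was 30186 to 37612 CPM in Duroc boars with low and 22800 to 31729 CPM with high DFI. In Landrace it was 30043 to 37423 and 25447 to 32233 CPM.

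Genes of earlier germ cells had medians closer to 0 in Duroc than late spermatid genes. All 15 tested genes of early spermatids and the acrosome, such as ACRBP and DPY19L2, were lower with high DFI in both breeds, with a median logFC of -0.12 in Duroc and -0.14 in Landrace. Of these, 4 in Duroc and 2 in Landrace had an unadjusted p under 0.05, against 9.89% and 4.53% of all genes. Of 18 spermatocyte genes, 17 were lower in Duroc (8 at that p, median -0.17) and 13 in Landrace (5 at that p, median -0.12), against the same shares of all genes. None of the 8 spermatogonia genes tested in Duroc or the 7 in Landrace reached that p, with medians of -0.04 and -0.12.

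Most somatic markers had the opposite direction. Leydig cells make testosterone, and 8 of 12 of their genes were matched. The summed level of these 8 was 1300 to 7433 CPM in Duroc boars with low and 4585 to 8714 CPM with high DFI, and 1872 to 5595 and 6154 to 16385 CPM in Landrace. Their median logFC was 0.74 in Duroc and 1.23 in Landrace. With an unadjusted p under 0.05, 4 of the 8 were higher in Duroc (11.3% of all genes) and 7 in Landrace (12.1% of all genes). CYP17A1, an enzyme of androgen synthesis, had a logFC of 0.75 in Duroc and 1.30 in Landrace, and INSL3, a peptide hormone of Leydig cells, 0.75 and 1.24. The likelihood ratio test called 2 of the 8 in Duroc, against 2.56% of all genes, and 7 in Landrace, against 5.28%. The 10 genes of peritubular myoid cells, the contractile cells around the tubules, had medians of 0.36 in Duroc and 0.66 in Landrace, and the 5 endothelial genes 0.44 and 0.56. The 6 macrophage genes had medians of 0.16 and 0.42. Sertoli cell genes, from the nurse cells inside the tubules, had medians of 0.14 over 10 genes in Duroc and -0.0053 over 11 in Landrace. In the quasi-likelihood test none of these somatic genes had an adjusted p under 0.05. The likelihood ratio test called 5 of the myoid, 2 of the endothelial and 2 of the macrophage genes in Landrace, 1 macrophage gene in Duroc, and no Sertoli gene in either breed. The part of these cells in the lower levels of PLCZ1 and CAPZA3 was not tested.

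**Figure D4:**
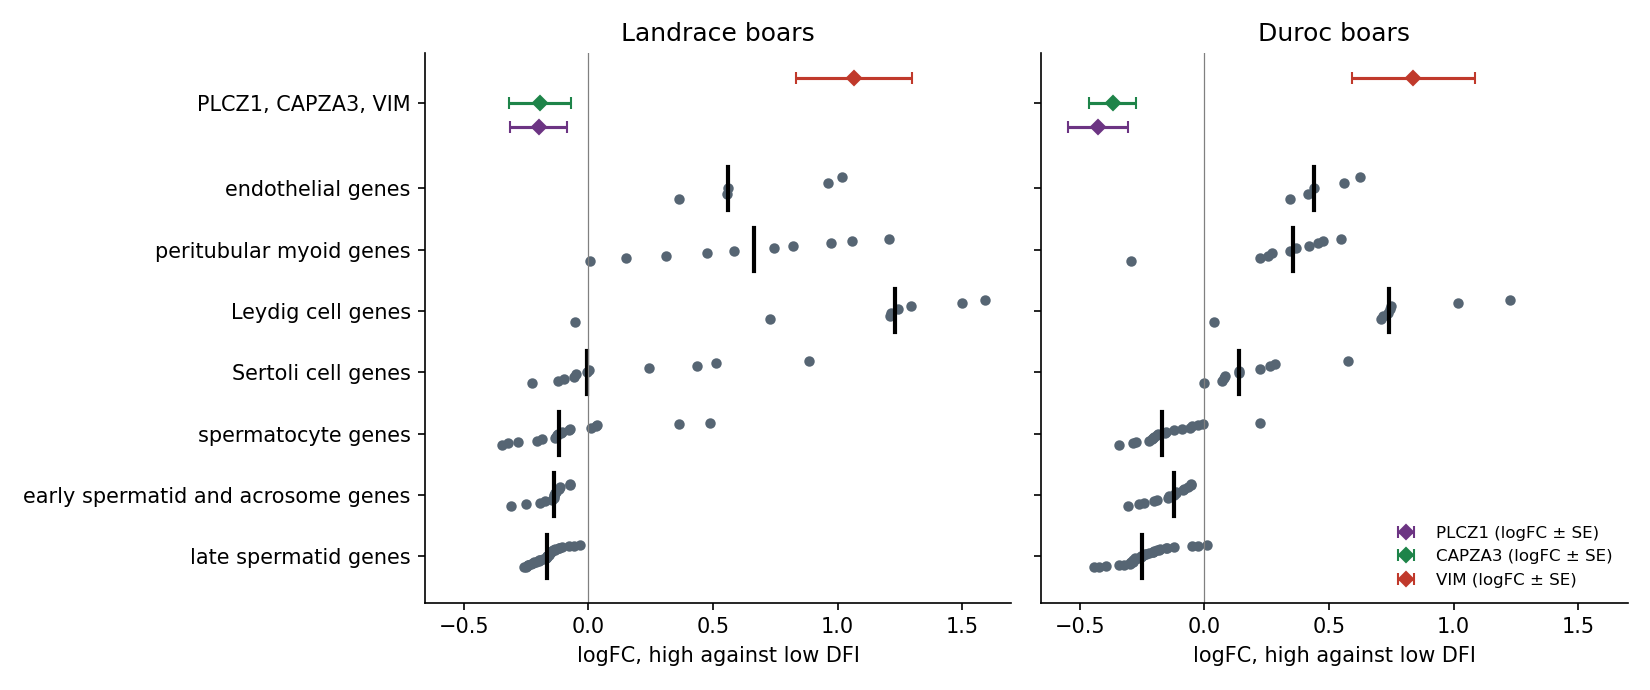
logFC of high against low DFI for the genes of 7 cell type lists (points, with the list median as a bar) and for PLCZ1, CAPZA3 and VIM (diamonds with SE). All 34 late spermatid genes in Landrace and 33 of 34 in Duroc lie below 0 (medians -0.16 and -0.25) and Leydig genes lie above it but for 1 in Landrace (medians 1.23 and 0.74).

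Over all 20 boars with the 4 group means removed, the gene most like PLCZ1 among 14635 was ENSSSCG00000009697 (r = 0.93). IPO5, an importer of proteins into the nucleus (r = 0.93), TRIM36, a ubiquitin ligase (r = 0.92), ICA1 (r = 0.92) and GALNTL5, a testis glycosyltransferase-like protein (r = 0.91), followed. The genes most like CAPZA3 were TMCO5A (r = 0.94), ENSSSCG00000022114 (r = 0.91), TXNDC8, a thioredoxin of spermatids (r = 0.91), ENSSSCG00000003826 (r = 0.90) and ENSSSCG00000015530 (r = 0.89). PLCZ1 and CAPZA3 had r = 0.85 with each other. CAPZA3 took rank 66 in the list of PLCZ1, and PLCZ1 rank 35 in that of CAPZA3, so each had many genes that were more alike to it than its neighbour. These correlations are descriptions over boars that share library depth and cell mix.

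Of the 34 late spermatid genes, 31 had a positive r with PLCZ1 (median 0.61) and 32 with CAPZA3 (median 0.64), against medians of -0.06 and -0.05 over all genes. All 8 Leydig genes had a negative r with both, with medians of -0.35 and -0.20. VIM had r = -0.43 with PLCZ1 and -0.36 with CAPZA3, and a median r of 0.82 with the Leydig genes. Its median r was lower with other somatic lists: 0.42 with endothelial, 0.32 with myoid and 0.08 with macrophage genes. With Sertoli genes it was -0.22, and 2 of those 10 genes had a positive r, so VIM did not follow all somatic cells alike. Myoid genes had medians of -0.43 with PLCZ1 and -0.43 with CAPZA3, and Sertoli genes -0.39 and -0.35.

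**Figure D5:**
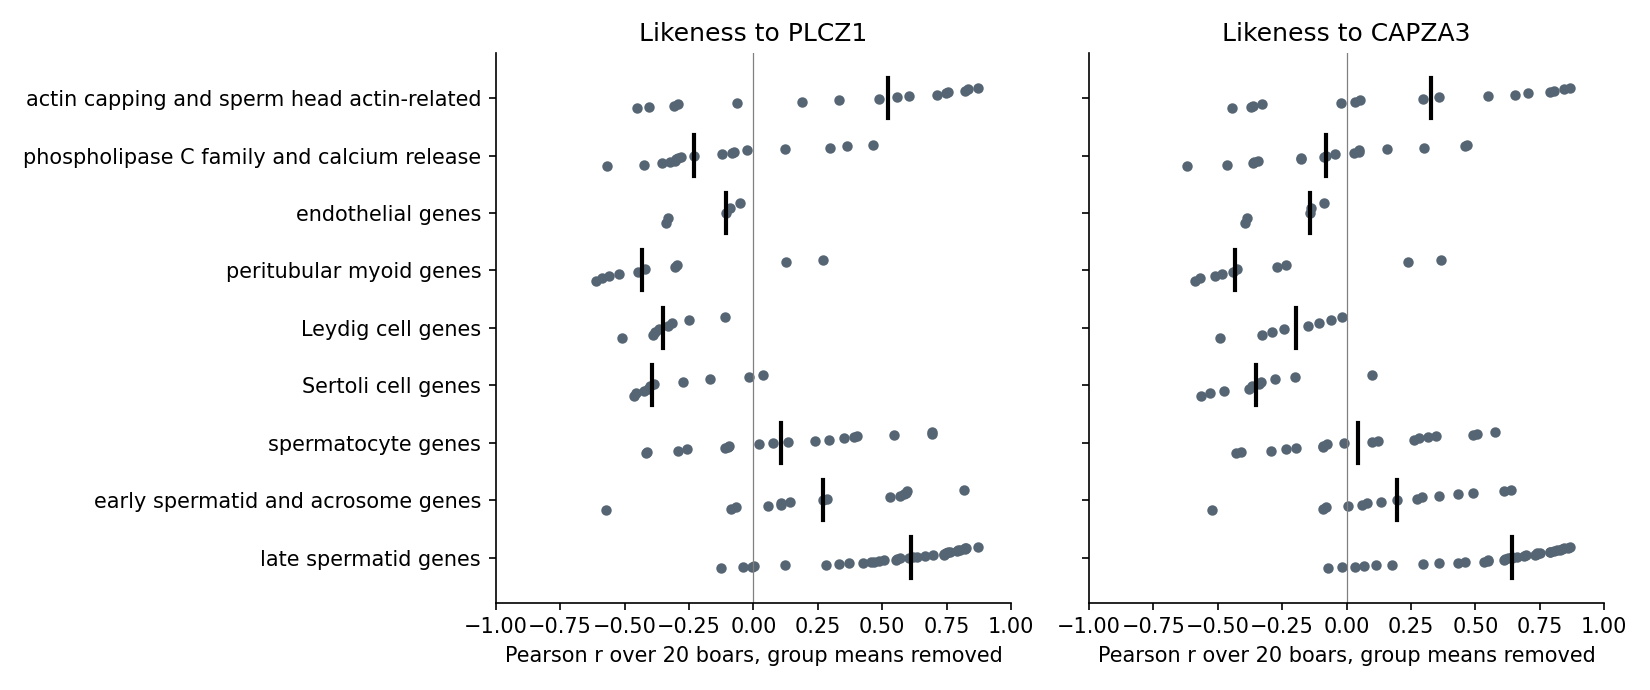
Pearson r over 20 boars, group means removed, of the genes of 9 lists with PLCZ1 (left) and CAPZA3 (right), with the list median as a bar. Late spermatid genes gather at high positive r (medians 0.61 and 0.64), and all 8 Leydig genes lie below 0.

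Of the genes beside the pair in RefSeq Sscrofa11.1, PIK3C2G, a lipid kinase, and then SLC15A5 were the nearest on one side that the count tables hold. PIK3C2G had a mean level of 38.6 CPM and followed both genes, with r = 0.77 with PLCZ1 and 0.64 with CAPZA3. Its logFC was -0.27 (SE 0.10) in Duroc and -0.13 (SE 0.16) in Landrace. SLC15A5, a peptide transporter-like gene, was below the filter on low counts. On the other side, PLEKHA5, a membrane-binding protein, had r = 0.49 and 0.37, and AEBP2, a partner of the Polycomb complex, r = -0.20 and -0.32. Between DFI groups neither had a logFC beyond -0.04 to 0.10. PLEKHA5 was higher in Duroc than in Landrace by 0.26 (SE 0.060) on the log2 scale (edgeR quasi-likelihood test, adjusted p = 0.0056), unlike PLCZ1 and CAPZA3, which did not pass that test.

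The other phospholipase C genes, with the receptors through which inositol trisphosphate releases calcium, did not as a list share the direction of PLCZ1. Of 18 such genes, 17 were tested, and 11 were higher and 6 lower with high DFI in Duroc. Their median logFC there was 0.16, in a range of -1.46 to 0.70. In Landrace 10 were higher and 7 lower, with a median of 0.05, and none passed the adjusted threshold in either breed. At an unadjusted p under 0.05, 4 were higher and 1 lower in each breed, where 11.3% of all genes were higher and 9.89% lower in Duroc, and 12.1% and 4.53% in Landrace. PLCD4 was the lower one in both, with a logFC of -0.21 (SE 0.075) in Duroc and -0.21 (SE 0.096) in Landrace, and it had the highest r with PLCZ1 of the family, 0.46. PLCB1, which the study listed in both breeds, had 0.70 (SE 0.22) in Duroc and 0.81 (SE 0.15) in Landrace, and the receptor gene ITPR1 0.31 (SE 0.17) and 0.67 (SE 0.15). ITPR2 had the lowest r with both members, -0.57 with PLCZ1 and -0.62 with CAPZA3. Between breeds 5 of the 17 passed the edgeR quasi-likelihood test, against 18.4% of all genes. PLCD1, PLCL2 and ITPR2 were higher in Duroc, by 0.55, 0.24 and 0.36 (adjusted p = 0.00078, 0.027 and 0.00096), and PLCB3 and PLCG2 were lower, with -0.44 and -0.23 (adjusted p = 0.042 and 0.046).

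Capping protein is a dimer of an alpha and a beta subunit. CAPZB, the beta subunit and so a partner of CAPZA3, had a logFC of -0.16 (SE 0.058) in Duroc and -0.12 (SE 0.077) in Landrace, and r = 0.83 with PLCZ1 and 0.70 with CAPZA3. CAPZA1 and CAPZA2, the alpha subunits that take the place of CAPZA3 in other cells, had r = -0.37 and -0.33 with CAPZA3. CAPZA1 had a logFC of -0.08 (SE 0.046) in Duroc and -0.0094 (SE 0.089) in Landrace, and CAPZA2 0.24 (SE 0.14) and 0.41 (SE 0.19). Of the 16 tested genes of actin capping and of the actin-related proteins of the sperm head, 13 were lower in each breed, with medians of -0.17 in Duroc and -0.13 in Landrace. At an unadjusted p under 0.05, 8 were lower and 1 higher in Duroc, and 1 was higher and none lower in Landrace. Over all genes, 9.89% were lower and 11.3% higher in Duroc, and 4.53% and 12.1% in Landrace. The lowest values in Duroc were those of CYLC2 and CYLC1, the cylicins of the sperm head cytoskeleton, with -0.44 (SE 0.12) and -0.42 (SE 0.12). They were also the 2 genes called by the likelihood ratio test, against 2.56% of all genes, and both are in the late spermatid list. In Landrace they had -0.15 (SE 0.15) and -0.16 (SE 0.14). CCIN, the cytoskeletal protein calicin, had r = 0.87 with PLCZ1 and 0.84 with CAPZA3, and ACTRT1, an actin-related protein, 0.76 and 0.87. Of these 16 genes, 8 are also in the late spermatid list. None of the 16 passed the adjusted threshold in either breed or between the breeds.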

How the data were processed

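Testis RNA of 9 Landrace and 11 Duroc boars was sequenced by the authors as non-stranded single-end libraries with reads of 50 bases. According to the paper and the submitters' processing notes, reads were mapped to Sus scrofa build Sscrofa10.2 with TopHat 2.0.12 and counted on Ensembl genes with HTSeq without regard to strand. The deposited values are raw counts per gene, not normalized. The lowest value in every library is 1, and how a 0 was treated is not given in the sources used here. The files listed 21648 genes in Landrace and 21717 in Duroc.

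From these counts, genes with at least 1 CPM in at least 5 Landrace, 6 Duroc or, for both breeds together, 10 boars were kept. TMM normalization and the quasi-likelihood F-test of edgeR 4.0.16 in R 4.3.3 were applied, with Benjamini-Hochberg adjustment over all kept genes and a threshold of 0.05. Each breed was fitted alone for DFI, as in the study, and the breed contrast used a fit of the 4 groups. Printed levels are TMM-scaled CPM over 20 boars. Ratios of counts and within-group correlations of log2(CPM + 0.5) were compared by exact two-sided permutation of boars with Python 3.11.15. The scripts were tested on simulated data. All 20 boars were assigned by the breed and group labels. No 2 libraries of the same group had counts alike within sampling noise, and libraries of different groups were not compared in this way. Symbols came from a gene name table and from RefSeq.

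The 2 genes, VIM, the gene lists and the tests were chosen with earlier results of these data known. Named were the pair, VIM, the nearest genes on each side in the tables and the 5 genes of highest r per member. Any phospholipase C and actin list gene could be named, and of other lists some of the most abundant. Late spermatid genes past the breed threshold were also named. Passing genes of other cell type lists were left unnamed in the breed test. They were 7 of 18 spermatocyte, 1 of 15 early spermatid and 1 of 7 spermatogonia genes. Of somatic lists, 2 of 10 Sertoli, 1 of 10 myoid and 2 of 6 macrophage genes passed, against 18.4% of all genes. The alternatives were the likelihood ratio test, DESeq2 1.42.0, RLE normalization, no filter, a filter of 10 counts in every boar, values of 1 set to 0, the 6 Landrace boars with consecutive sample numbers, the number series as a covariate, other denominators and each boar left out. Boars of a group were taken as separate animals. Sequences, the study's own fold changes and its variants were not analysed here.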

Additional observations from a re-analysis of the deposited data

Results flagged for a closer look

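VIM in Landrace low 4 was 258 CPM, while the other 4 low DFI Landrace boars had 154 to 178 CPM. The gap to the next boar was 0.772 of the group's range, above Dixon's critical value of 0.71 for 5 samples. This was the only such boar in 24 combinations of a group with the levels of PLCZ1, CAPZA3 and VIM, the count ratio and the shares of the late spermatid counts, and chance gives about 1 in 20. PLCZ1 and CAPZA3 of the same boar, 339 and 401 CPM, were the lowest of its group.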

How the results depend on the processing

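The logFC of PLCZ1 and CAPZA3 in Landrace and between breeds had the same direction and an adjusted p above 0.05 in all 92 alternatives computed for them. Of the Landrace alternatives, those with the 6 consecutive boars under the likelihood ratio test or without Landrace high 1 were chosen after seeing the data. The number of genes past the adjusted threshold depended on the test. In Landrace it was 767 with the likelihood ratio test, 828 with DESeq2, 292 with the likelihood ratio test in the 6 consecutive boars, 1 without a filter, 1 with 10 counts in every boar and 0 to 2 with 1 boar left out. In Duroc it was 376 with the likelihood ratio test, 859 with DESeq2, 0 without a filter and 0 to 17 with 1 boar left out (17 without Duroc low 5). The breed count stayed within 2222 to 3142.

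Differences near 0 changed sign. With 1 boar left out, the Landrace log2 difference was -0.059 to 0.043 for the ratio of PLCZ1 to CAPZA3, -0.093 to 0.028 for PLCZ1 per late spermatid count (0.035 in the 6 consecutive boars) and -0.10 to 0.047 for CAPZA3 per late spermatid count. The r of CAPZA3 with PLCZ1 in Landrace was 0.56 to 0.94 with 1 boar left out, 0.36 without the 2 farthest boars and 0.77 in the 6 consecutive boars, and the latter 2 had permutation p above 0.05. With 1 boar left out, the r of PLCZ1 with VIM in Landrace was -0.85 to -0.62. Its permutation p was 0.010 to 0.13 and stayed under 0.05 in 1 of these 9 runs. This r was -0.74 on total counts only, -0.68 without the 2 farthest boars and -0.74 in the 6 consecutive boars. All 3 had permutation p above 0.05. The r of CAPZA3 with VIM in Landrace was -0.90 in the 6 consecutive boars and did not pass the threshold there (exact permutation p = 0.083). In Duroc, r with VIM was -0.47 to 0.020 for PLCZ1 and -0.14 to 0.24 for CAPZA3 with 1 boar left out, and 0.093 for PLCZ1 without the 2 farthest boars. The cause was not tested.

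No paired analysis was possible because the labels do not pair boars between groups, and their numbers are only names. The smallest library, Landrace high 1, still held 7243 counts of PLCZ1, so its counting error was small. Other effects of its depth were not tested.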
